A study of Mus musculus with 31 samples.

Results

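The nuclear genes for subunits of the oxidative phosphorylation machinery were examined in RNA from the basolateral amygdala (BLA) of 31 mice. Members were the protein-coding genes whose symbol in the GENCODE annotation of GRCm38 begins with Nduf followed by a subunit letter and number, Sdha to Sdhd, Uqcr, Cox4 to Cox8 or Atp5, without pseudogene symbols, and a count of 10 or more in 7 or more of the 31 mice. Of 84 genes with such a symbol, 80 passed the read filter, among 17428 genes that passed it and 48709 genes in the files. They comprise 35 genes of complex I, 4 of complex II, 8 of complex III, 16 of complex IV and 17 of complex V. The 4 genes below the filter belong to complex IV. Cox8c, an isoform of the testis, had 0 reads in all 31 mice, Cox4i2 had at most 8 reads in a mouse, Cox8b at most 26 and Cox7b2 at most 32. Ndufa4 and Ndufa4l2 were placed in complex IV, where the Ndufa4 protein resides despite its name. The symbol rule also takes Cox7a2l, a factor that joins complexes III and IV, and Atp5s, a coupling factor, and it leaves out Ndufab1 of complex I and Cyc1 of complex III.

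Oxidative phosphorylation takes place in the inner mitochondrial membrane. Complexes I and II pass electrons from NADH and succinate to ubiquinone, complex III passes them on to cytochrome c, and complex IV passes them to oxygen. Complexes I, III and IV pump protons as they do so, and complex V, the ATP synthase, makes ATP from the proton gradient. The mitochondrial genome encodes part of every complex but II, and all other subunits come from nuclear genes. Neurons draw most of their ATP from this pathway.

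The mice carried a bacterial artificial chromosome with human CYFIP1, placed by pronuclear injection into C57BL/6N, or were their non-transgenic controls. CYFIP1 is a partner of the fragile X protein and of the complex that remodels actin. The groups were 8 control mice of line 1 (4 female and 4 male, aged 59 to 61 days), 8 control mice of line 3 (4 and 4, 58 to 60 days), 7 CYFIP OE mice of line 1 (4 and 3, 59 to 77 days) and 8 CYFIP OE mice of line 3 (4 and 4, 58 to 64 days). A line descends from 1 founder, and 7 of the 8 control mice of line 1 share a name prefix that no CYFIP OE mouse of that line has, and a single prefix in line 1 holds both genotypes, so genotype and name group are largely confounded in line 1. The labels number the lines 1 and 3 and the study's methods 1 and 2, and the labels are followed here. A punch of 1 mm was taken from each side and the sides were pooled. Libraries were made by QuantSeq, which reads the 3′ end of a transcript, so that counts are not in proportion to transcript length and are not divided by it here. In bulk tissue, fewer cells of a type and less RNA per cell cannot be told apart.

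Total counts per mouse ranged from 5286925 to 8685521, of which the members took 0.883% to 1.85% (66190 to 160120 reads). Levels are in CPM, the count scaled to library size after TMM normalization, which makes libraries comparable. One library stood apart. CYFIP OE line 3 replicate 1, a male, had a connectivity Z-score of -4.74, a measure of how well a library correlates with the rest. It had the lowest level of all 31 mice in 33 members and the highest in 7. It is called the outlying mouse, and results that rest on it are given with and without it. Mouse Cyfip1 had 33.5 ± 4.48 CPM in control mice (SD, n = 16) and 33.0 ± 3.66 CPM in CYFIP OE mice (SD, n = 15), a log2 difference of -0.02 (SE 0.08, adjusted p = 0.999 in edgeR), so the counts of the mouse gene do not show the transgene. Among markers of the dissected region, Slc17a7 of principal neurons had 26 to 6187 reads, and Ppp1r1b, abundant in the striatum beside the BLA, had 619 to 16401. The striatal receptor gene Drd2 had a median of 0 reads.

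Promoter letters are a feature that the choice of members did not use. RefSeq windows from 250 bases before to 50 after a start site were at hand for 66 of the 80 members (71 windows, build GRCm38.p6), among 32851 windows of all genes. Both strands were searched for the letters that several regulators of mitochondrial genes recognize. GCGCATGCG, the site of NRF1, a nuclear activator of respiratory genes, was in 8 windows of members (11.3%) and in 1.75% of all windows. CCGGAAG, the core site of ETS factors such as GABP (NRF2), was in 16 windows (22.5% against 8.86% of all), and AAGATGGCG, bound by YY1, in 7 (9.86% against 1.40%). CAAGGTCA, the site of estrogen-related receptors, was in 4 windows (5.63% against 1.56%). GGGCGG, the Sp1 box, was in 39.4% of windows against 35.7%, CCAAT in 42.3% against 37.4% and TATAAA in 8.45% against 13.6%. Member windows held a median of 19 CpG dinucleotides and all windows 7. No match says whether a factor binds, and windows of all genes were not matched for CpG content. By complex, YY1 letters were in 5 of 33 windows of complex I, 2 of 18 of complex V and 0 of those of complexes II, III and IV.

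Windows are shown for 4 members on which results turn, and for Cox6a1, the main Cox6a isoform, because it holds both NRF1 and ETS letters. All run 5′ to 3′ on the strand of the gene. Capitals mark the letters of NRF1 (GCGCATGCG, which on both strands overlaps to GCGCATGCGC), ETS (CTTCCGG, the reverse strand of CCGGAAG) or YY1. Ndufb6 (chr4:40279372-40279671, minus strand) has an ETS match, Ndufs4 (chr13:114388045-114388344, minus) a YY1 match that begins at base 36 of the window's transcribed part, and Uqcrc1 (chr9:108936398-108936697, plus) an NRF1 match. Cox6a1 (chr5:115348909-115349208, minus) and Atp5k (chr5:108434350-108434649, minus) have both NRF1 and ETS matches, as do Atp5l and Uqcr11.
Ndufb6: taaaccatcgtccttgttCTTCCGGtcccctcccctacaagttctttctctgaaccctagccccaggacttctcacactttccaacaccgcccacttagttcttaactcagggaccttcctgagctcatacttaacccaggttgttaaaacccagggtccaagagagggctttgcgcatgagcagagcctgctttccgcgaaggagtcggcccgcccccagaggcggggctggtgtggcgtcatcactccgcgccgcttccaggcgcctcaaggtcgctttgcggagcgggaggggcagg
Ndufs4: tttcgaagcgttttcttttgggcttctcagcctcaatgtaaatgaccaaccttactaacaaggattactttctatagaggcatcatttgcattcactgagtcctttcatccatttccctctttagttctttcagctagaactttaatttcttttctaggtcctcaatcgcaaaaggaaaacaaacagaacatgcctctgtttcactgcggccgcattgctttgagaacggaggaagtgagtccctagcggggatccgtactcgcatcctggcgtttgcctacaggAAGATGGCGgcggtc
Uqcrc1: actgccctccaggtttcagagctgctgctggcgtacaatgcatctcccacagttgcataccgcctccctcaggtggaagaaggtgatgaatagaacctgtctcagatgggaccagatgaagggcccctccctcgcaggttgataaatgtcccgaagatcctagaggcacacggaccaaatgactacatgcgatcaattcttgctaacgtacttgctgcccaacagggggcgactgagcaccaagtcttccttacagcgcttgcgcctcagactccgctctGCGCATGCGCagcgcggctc
Cox6a1: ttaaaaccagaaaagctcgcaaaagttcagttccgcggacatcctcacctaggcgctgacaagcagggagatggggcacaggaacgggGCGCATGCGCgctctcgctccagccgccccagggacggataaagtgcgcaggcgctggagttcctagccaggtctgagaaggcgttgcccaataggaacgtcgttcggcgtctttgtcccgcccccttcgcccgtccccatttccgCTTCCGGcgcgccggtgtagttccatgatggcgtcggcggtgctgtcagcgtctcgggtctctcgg
Atp5k: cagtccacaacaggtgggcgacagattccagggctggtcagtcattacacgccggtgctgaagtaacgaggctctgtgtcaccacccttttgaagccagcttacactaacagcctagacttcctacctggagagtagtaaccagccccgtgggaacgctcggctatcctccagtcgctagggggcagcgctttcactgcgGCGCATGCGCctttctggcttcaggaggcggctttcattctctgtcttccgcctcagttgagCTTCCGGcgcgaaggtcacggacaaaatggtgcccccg

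The level of a member differed far more between members than between mice. In complex I the highest mean levels were those of Ndufb9 (291 CPM) and Ndufb8 (278 CPM), membrane arm subunits, and the lowest that of Ndufb4 (31.4 CPM). In complex III Uqcrh, the hinge protein, led with 326 CPM, Uqcr11 followed with 219 CPM, and Uqcrc1, a core protein, was lowest with 94.6 CPM. The ratio of highest to lowest mean was 9.27 in complex I and 3.45 in complex III. These complexes therefore had their members within a narrower span than complexes IV (733) and V (167), whose lowest members are tissue isoforms or a coupling factor. Cox8a and Cox6c, small subunits of complex IV, had 738 and 691 CPM, while Ndufa4l2, which hypoxia induces in other tissues, had 1.01 CPM. In complex V Atp5g3, which encodes the c subunit of the proton-driven ring, was the highest member of all with 913 ± 156 CPM (SD, n = 31), Atp5b, the catalytic beta subunit, had 507 ± 69.5 CPM, and Atp5s was lowest with 5.47 CPM. Since reads mark transcript 3′ ends, these values compare numbers of ends and not lengths.

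Complex II, which has no mitochondrial gene and is also an enzyme of the citric acid cycle, had 4 members that ran from Sdha to Sdhd over a ratio of 22.6. Sdha, the flavoprotein, had 159 ± 15.6 CPM (SD, n = 31) and the smallest spread relative to its mean of the 80 members. Sdhb, the iron-sulfur protein, had 116 ± 25.7 CPM and the membrane anchors Sdhc and Sdhd had 86.8 ± 23.9 and 7.01 ± 2.29 CPM. Sdhd went as low as 1.79 CPM in a mouse, so that its differences carry the largest counting error in this complex.

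**Figure D1:**
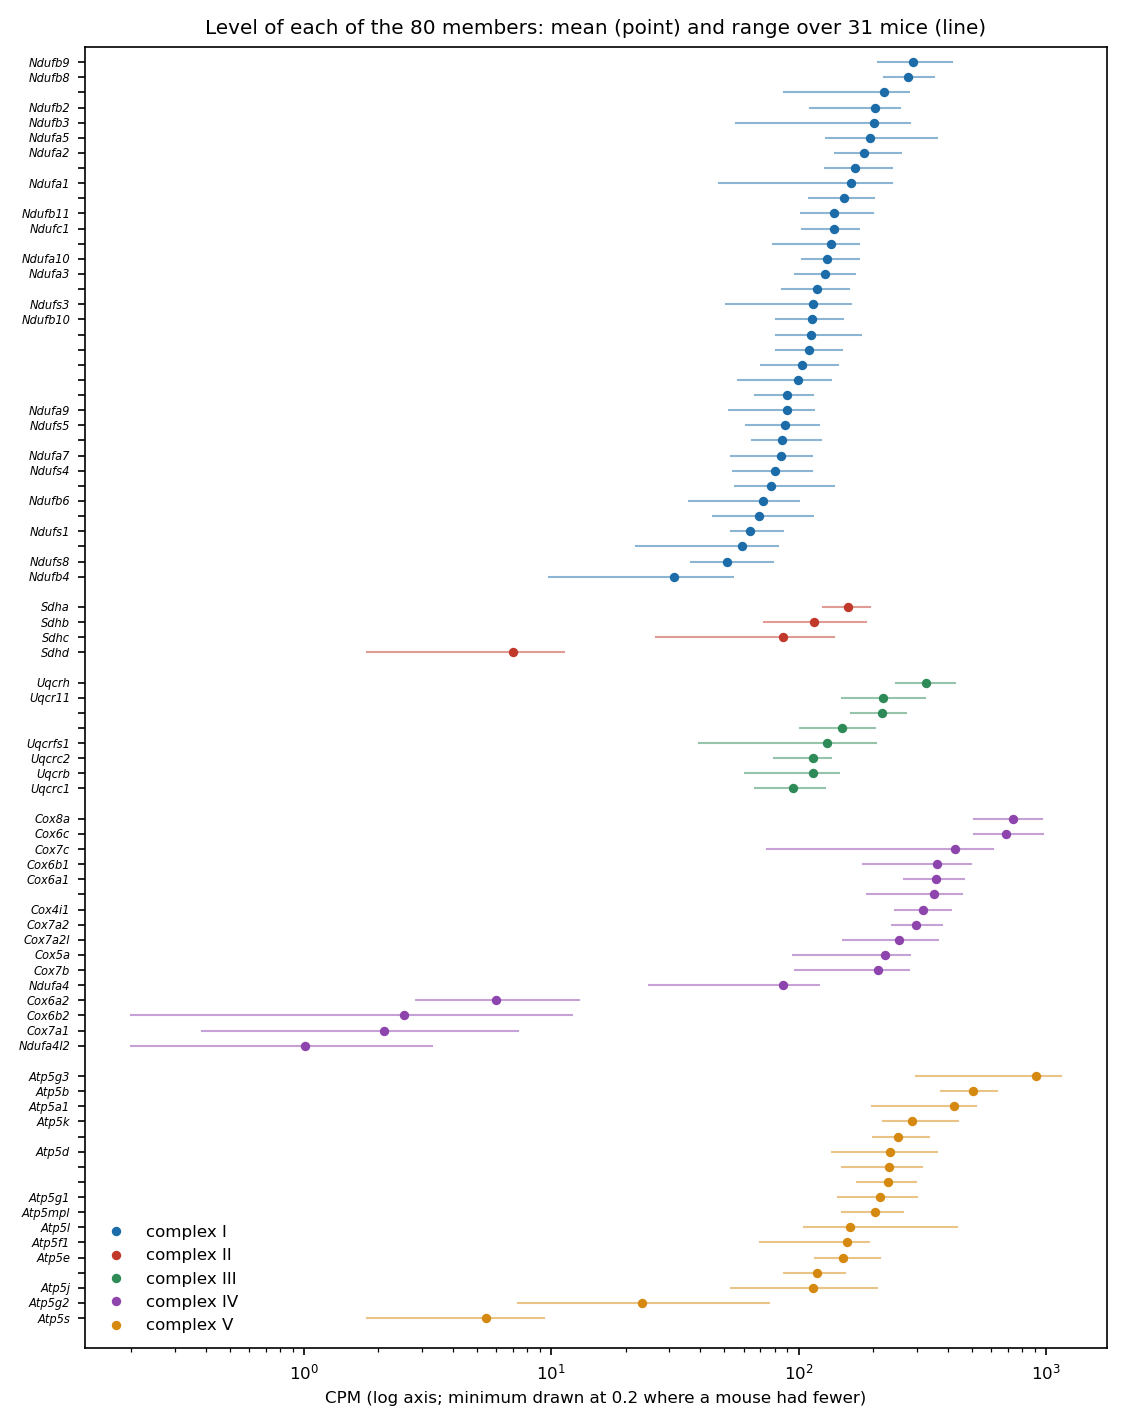
Mean CPM (points, log axis) and range over the 31 mice (lines) of each of the 80 members, ordered by level within complexes I to V, with labels for members named in the text. Complex III spans 94.6 to 326 CPM, while complex IV spans 1.01 to 738 CPM.

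Isoform genes had unequal shares. Of the reads on the genes for the c subunit, Atp5g3 took 78.9 ± 6.80% (SD, n = 31), Atp5g1 19.0 ± 5.12% and Atp5g2 2.15 ± 1.83%. With near-identical copies added, these shares were 71.0 ± 5.32%, 17.2 ± 5.35% and 11.8 ± 1.11%, so the share of Atp5g2 rests on how its reads were split. Cox6a1, the form of most tissues, took 98.4 ± 0.591% of the Cox6a reads and Cox6a2, the form of heart and muscle, the rest, at 5.96 CPM. The muscle form Cox7a1 took 0.38 ± 0.222% of the Cox7a reads, against 53.8 ± 2.80% for Cox7a2 and 45.9 ± 2.81% for Cox7a2l. Cox4i1 had 318 CPM, and its counterpart Cox4i2 was below the filter, as Cox8b was beside Cox8a. Ndufa4 took 98.8% of its pair with Ndufa4l2. These shares differed little by genotype (Atp5g3 80.2 ± 2.53% in 16 control and 77.4 ± 9.38% in 15 CYFIP OE mice), and the low end in CYFIP OE mice, 44.9%, was the outlying mouse.

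Many of these short transcripts have processed copies in the genome. A sequence at least 95% identical over at least 100 of the last 300 transcript bases was annotated for 20 of the 80 members. In 5 members such copies held more than 5% of the reads of gene and copies together. The share was 6.98% for Cox6c, 35.4% for Cox7c, 38.7% for Ndufs5, 72.9% for Atp5l and 85.1% for Atp5g2. How reads that fit both were split rests on the authors' quantification, so the level of these 5 genes is uncertain. Values in CPM, correlations and differences are for the gene alone unless copies are named. In the outlying mouse Atp5g2 had 75.8 CPM alone and 75.8 CPM with its copies, whereas over all 31 mice it had 23.4 ± 12.5 CPM alone and 151 ± 27.7 CPM with them.

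**Figure D2:**
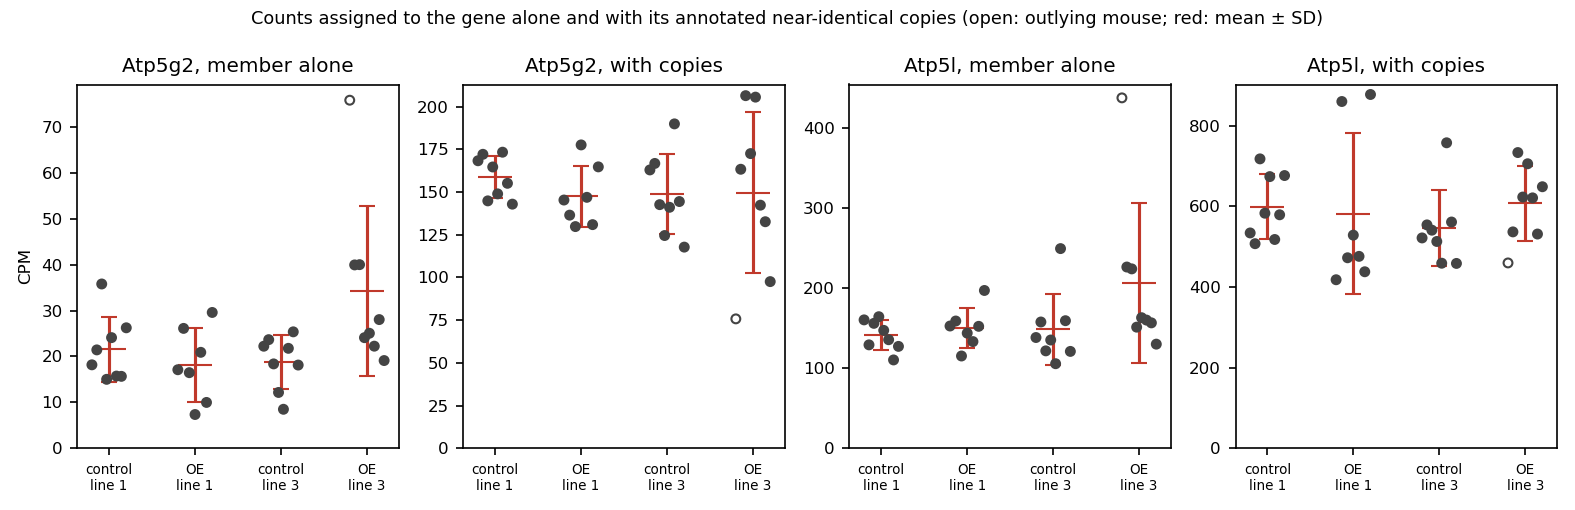
CPM of Atp5g2 and Atp5l in each mouse by genotype and line, for the member alone and with its near-identical copies added (points are mice, the open point the outlying mouse, red marks the mean and SD). The outlying mouse is the highest of its group in both genes alone, and the lowest of its group in both once copies are added.

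Across the 31 mice the members moved together, and about as much between complexes as within them. After sex, line and genotype had been removed from the log2 CPM, the median Pearson r was 0.356 over 885 pairs within a complex and 0.361 over 2275 pairs between complexes (standard errors 0.068 and 0.052 from leaving out each mouse, and 0.035 for the difference of the medians). The median over all pairs of the 17428 genes was -0.001, and 83.5% of the member pairs had a positive r. These r values are descriptions over 31 mice that share their libraries, so depth, dissection and RNA quality enter every pair. Leaving out a single mouse moved the within-complex median between 0.335 and 0.408 and the between-complex median between 0.340 and 0.384. The upper ends came from leaving out the outlying mouse.

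Complex by complex, the highest median was within complex III (0.497, 28 pairs), followed by complexes I (0.362, 595 pairs), V (0.331), IV (0.301) and II (0.124, 6 pairs). Without the outlying mouse the order changed to I (0.422), V (0.404), III (0.344), IV (0.310) and II (0.115). Complex II was lowest both ways, on few pairs. Between complexes the highest median was that of III with V (0.459) and the lowest that of I with II (0.235), and without the outlying mouse the values were 0.479 and 0.264. In that set the pairs of II with V (0.213), with IV (0.223) and with III (0.255) were below I with II.

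**Figure D3:**
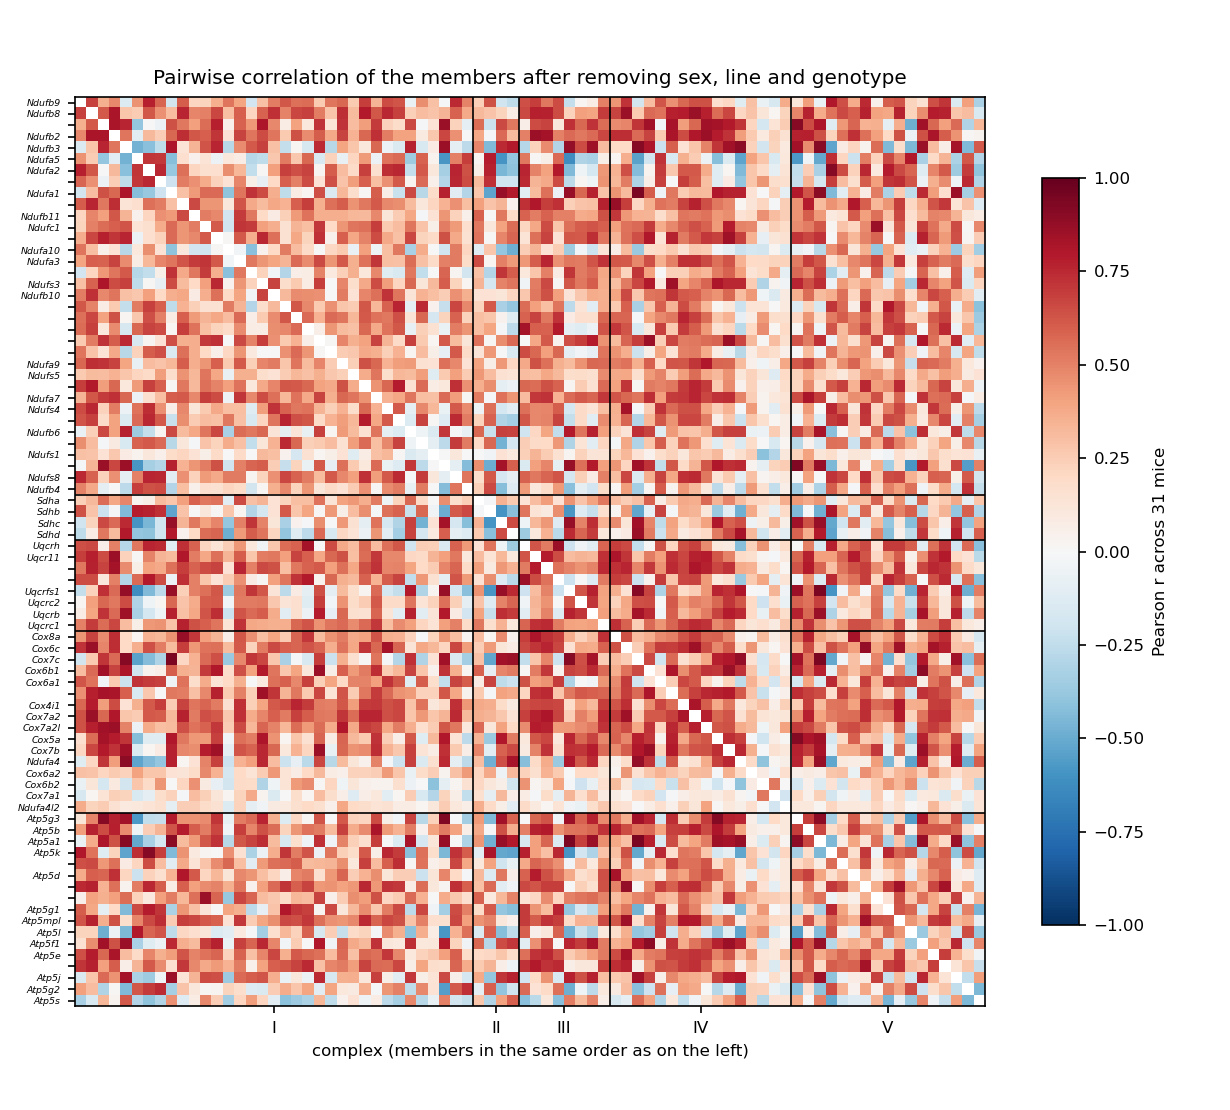
Pearson r across 31 mice for each pair of the 80 members, ordered by complex (I to V on the axes, labels for members named in the text), after removal of sex, line and genotype. Positive values lie throughout the map and do not form blocks along the diagonal, and single genes such as Sdhb and Ndufa5 stand out as rows with negative values.

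The pairs with the highest r joined different complexes. Atp5a1, the alpha subunit of complex V, and Uqcrfs1, the Rieske iron-sulfur protein of complex III, had an r of 0.943 in 31 mice and 0.877 without the outlying mouse. Ndufa1 and Cox7c had 0.942 and 0.917, and Ndufa2 and Atp5k had 0.910 and 0.900. The 3 most negative pairs, Ndufa5 with Uqcrfs1 (-0.623), Uqcrfs1 with Atp5k (-0.591) and Sdhb with Sdhc (-0.587), were not among the 10 most negative without that mouse. In their place stood pairs of Ndufa10, with Sdhd (-0.595) and Cox7c (-0.571).

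Within each complex some members followed the rest and some did not. Ndufb8 had the highest median r to the other members of complex I (0.549, and 0.599 without the outlying mouse) and Ndufs1, a core subunit of the electron path, the lowest (0.097 and 0.108). In complex IV Cox7a2 was highest (0.615) and Cox6b2, an isoform of the testis with 2.53 CPM here, lowest (0.002). Atp5b was highest in complex V (0.522) and Atp5s lowest (-0.105). In complex III the range was narrow, from Uqcrc2 (0.398) to Uqcr11 (0.627). Sdhb had a median r of -0.417 to the other members of complex II, against 0.348 for Sdhc, and without the outlying mouse the values were -0.186 and 0.152.

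Base composition and other gene lists moved with the members. The last 300 transcript bases of members had a median GC content of 47.3%, against 42.3% for all genes, and a median transcript length of 849.5 against 2841.5 bases. Split at 47.33% GC, the 39 members below had a median pairwise r of 0.488, the 41 above 0.409, and pairs across the split 0.283 (0.402, 0.468 and 0.342 without the outlying mouse). All genes split at the same GC content had medians between -0.009 and 0.019. The mean of the members over mice had an r of 0.675 with the mean of 7 oligodendrocyte markers, 0.671 with 14 citric acid cycle genes, 0.636 with 79 cytoplasmic ribosomal protein genes and 0.621 with 37 proteasome genes. The r with the 13 protein genes of the mitochondrial genome, which encode the remaining subunits of these complexes, was 0.294. It was 0.506 with 3 thalamus markers, 0.362 with 5 striatal, 0.342 with 5 astrocyte and 0.290 with 5 microglia markers (0.443, 0.238, 0.512 and 0.521 without the outlying mouse). It was -0.443 with 6 markers of amygdala principal neurons and -0.267 with 8 neuronal markers. Without that mouse the r with oligodendrocyte, citric acid cycle, ribosomal, proteasome, mitochondrial, principal neuron and neuronal genes was 0.649, 0.600, 0.791, 0.580, 0.377, -0.397 and -0.310. The principal neuron and neuronal lists share Slc17a7, and their own median pairwise r was only 0.139 and -0.049 in 31 mice. It was 0.942 for oligodendrocyte, 0.969 for striatal, 0.169 for citric acid cycle and 0.046 for proteasome genes. It was 0.398 for the ribosomal protein genes and 0.698 for the mitochondrial genes (0.444 and 0.755 without the outlying mouse). The ribosomal value was close to that of the member pairs, so shared movement of this size was not particular to the members. A list with a low own r has a mean that does not stand for genes moving together. The part of dissection, cell type and library quality in the shared movement was not tested.

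The co-variation was positive within each genotype and each line. The within and between medians were 0.398 and 0.391 in 16 control mice and 0.308 and 0.334 in 15 CYFIP OE mice (0.382 and 0.352 without the outlying mouse). In line 1 they were 0.416 and 0.348 (15 mice) and in line 3 0.330 and 0.389 (16 mice), or 0.438 and 0.462 without the outlying mouse. None of these differences between groups was tested.

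The main comparison asked whether the CYFIP1 transgene altered the levels of these genes. Of the 80 members 0 had an adjusted p under 0.05 for genotype in edgeR's quasi-likelihood test with sex and line as terms (background over all 17428 genes 0.0%), and 0 in DESeq2. At an unadjusted p under 0.05 there was 1 member (background 4.3%), and 1 in DESeq2. Higher levels in CYFIP OE mice were seen for 47 members and lower levels for 33, with a median log2 difference of 0.03 against -0.01 over all genes. By complex the median was 0.04 in I, -0.05 in II, 0.05 in III, -0.01 in IV and 0.07 in V. The median SE of a member was 0.09, so that a difference of about that size could not be seen gene by gene. That SE is not the smallest difference that could be called.

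The member under the unadjusted threshold was Atp5l (ENSMUSG00000038717, chromosome 9, 44912557 to 44920742, minus strand), which encodes subunit g in the membrane part of complex V. It had 105.5 to 249.1 CPM in control mice of line 3 (median 137) and 130 to 437 CPM in CYFIP OE mice of line 3 (median 161), and in line 1 the medians were 141 in control and 152 in CYFIP OE mice. The groups overlapped in both lines. Its log2 difference was 0.29 (SE 0.14, adjusted p = 0.999 in edgeR). Without the outlying mouse, which held the 437 CPM, it was 0.14 (adjusted p = 1), and with the copies added it was 0.04 (adjusted p = 0.999). Neither value had an unadjusted p under 0.05. Next by p came Ndufa2 of complex I (0.16, SE 0.09, adjusted p = 0.999) and Atp5k, subunit e of complex V (0.17, SE 0.10, adjusted p = 0.999). On the lower side they were Cox6a2 (-0.28, SE 0.18), Sdhc (-0.18, SE 0.15) and Atp5j, coupling factor 6 (-0.15, SE 0.12).

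Line was compared in the same model. For line 3 against line 1, 0 members had an adjusted p under 0.05 in edgeR or DESeq2 (background 0.0%), and 0 had an unadjusted p under 0.05 in either (background 3.31%). The median log2 difference was 0.02 against 0.01 over all genes, with 45 members higher in line 3. The smallest p were those of Atp5l (0.26, SE 0.14, adjusted p = 1), Atp5g2 (0.34, SE 0.22) and Cox8a (0.11, SE 0.08), and on the lower side of Ndufb10 (-0.11), Ndufs8 (-0.13) and Ndufa4l2 (-0.57, SE 0.46). With copies added the line differences of Atp5l and Atp5g2 were -0.02 and -0.04, and without the outlying mouse 0.12 and 0.17.

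Whether the genotype difference itself differed between the lines was tested by an interaction term. It was called for 0 members at an adjusted p under 0.05 (background 0.0%) in edgeR and DESeq2. It was called for 3 at an unadjusted p under 0.05 in both (background 8.1%). Of the 80 members 58 had a more positive genotype difference in line 3 than in line 1, with a median of 0.10 against -0.01 over all genes. With 5 surrogate variables, which are estimated axes of unwanted variation, the median was -0.08 and 21 were more positive. Within line 3, in the same fit, 8 members had an unadjusted p under 0.05 for genotype in edgeR, all with higher levels in CYFIP OE mice (background 7.93% in both directions). The median was 0.09. It was 0.15 in the 41 members of higher GC content at the 3′ end and 0.0045 in the 39 of lower. All genes split at the same GC content had medians of 0.04 and -0.04. With 5 surrogate variables 5 members had an unadjusted p under 0.05, all lower (background 786 of 17428 genes), and the median was -0.03. A fit of the line 3 mice alone gave 7, all higher (background 1102 of 17428 genes), with a median of 0.09. With name group as a term, on 18 mice of which 16 were of line 3, there were 2 and the median was 0.04. In line 1 the median was -0.01. Cell markers also moved with this term. Of striatal markers 5 of 5 had a positive interaction (median 1.497), all with an unadjusted p under 0.05. Of 6 amygdala principal neuron markers 4 were negative and 2 positive (median -0.57, 3 unadjusted calls). Oligodendrocyte markers were positive for 7 of 7 (median 0.21, 0 calls) and microglia markers for 3 of 5 (0.28, 2 calls). The part of these markers in the members' values was not tested.

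Ndufs4 (ENSMUSG00000021764, chromosome 13, 114287795 to 114388258, minus strand), an accessory subunit of complex I whose loss causes encephalopathy in mice, had one of the 3 interaction differences. In line 1 it had a median of 84.3 CPM in control mice (65.9 to 96.7) and 56.7 CPM in CYFIP OE mice (54.3 to 107). In line 3 the medians were 68.7 CPM in control (61.6 to 112) and 87.7 CPM in CYFIP OE mice (75.8 to 114). The order of the genotypes was opposite in the lines, with overlap in each. The log2 interaction was 0.53 (SE 0.19, adjusted p = 0.535 in edgeR), and 0.10 (adjusted p = 1) with 5 surrogate variables.

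Atp5k (ENSMUSG00000050856, chromosome 5, 108433244 to 108434448, minus strand) had a median of 276 CPM in control (249.1 to 360.4) and 252 CPM in CYFIP OE mice (224 to 418) of line 1. In line 3 it had 242 CPM in control (220 to 338) and 313 CPM in CYFIP OE mice (269 to 442). In line 3 7 of the 8 control mice were below all CYFIP OE mice. Its interaction was 0.40 (SE 0.18, adjusted p = 0.581 in edgeR), and 0.05 (adjusted p = 1) with 5 surrogate variables. Without the outlying mouse, which held the 442 CPM, it was 0.33 (adjusted p = 0.493 in edgeR) and no longer under the unadjusted threshold. The genotype difference of Atp5k within line 3 was 0.37 with that mouse and 0.29 without it. Atp5g2 (ENSMUSG00000062683, chromosome 15, 102662864 to 102672352, minus strand) had medians of 19.8 and 17.1 CPM in control and CYFIP OE mice of line 1 and 20.1 and 26.5 CPM in those of line 3, with a maximum of 75.8 CPM in the outlying mouse. Its interaction was 1.15 (SE 0.40, adjusted p = 0.535 in edgeR), and with the copies added it was 0.12 (adjusted p = 0.924). Within line 3 its genotype difference was 0.88 (adjusted p = 0.514) alone and -0.02 (adjusted p = 0.981) with the copies. Without the outlying mouse the interaction was 0.88 and the difference within line 3 was 0.58, for the gene alone. The smallest p for a difference in the other direction were those of Sdha (-0.22, SE 0.12), Ndufa4l2 (-1.61, SE 0.90) and Ndufb3 (-0.28, SE 0.25).

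Most members had lower levels in males over all mice, though not among control mice, where 38 of 80 did. For male against female, 0 members had an adjusted p under 0.05 in edgeR and DESeq2 (background 0.0631%). At an unadjusted p under 0.05 there were 10 in edgeR (background 4.62%) and 14 in DESeq2 (911 of 17428 genes), all lower in males. Lower levels in males were seen for 76 of 80 members, 75 without the outlying mouse, with a median log2 difference of -0.12 against 0.02 over all genes. All 35 members of complex I, 4 of complex II and 8 of complex III were lower, as were 14 of 16 in complex IV and 15 of 17 in complex V. The 4 on the other side were Ndufa4l2 (0.32, SE 0.46), Cox6b2 (0.06, SE 0.46), Atp5d (0.05, SE 0.13) and Atp5s (0.02, SE 0.22). With 5 surrogate variables 61 were lower and the median was -0.05. Without the 4 mice aged 77 days, all CYFIP OE mice of line 1, there were 17 unadjusted calls (background 976 of 17428 genes). Markers of other cells also had a shared direction by sex: 7 of 7 oligodendrocyte markers (median 0.16), 3 of 3 thalamus markers (0.54) and 3 of 3 blood markers (0.39) were higher in males. So were 5 of 5 astrocyte markers (0.09). Lower in males, as the members were, stood 5 of 5 tested striatal markers (-0.26) and 5 of 5 microglia markers (-0.03). Of the oligodendrocyte, astrocyte, striatal and microglia markers, 0 had an unadjusted p under 0.05 for sex. The oligodendrocyte markers were higher in males among control mice (7 of 7, median 0.51) and lower among CYFIP OE mice (7 of 7, median -0.21). The part of all these markers in the members' values was not tested.

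Atp5e, the epsilon subunit of complex V, had the smallest p. It had 116 to 213 CPM in 16 females (median 154) and 116 to 169 CPM in 15 males (median 141), with a log2 difference of -0.21 (SE 0.08, adjusted p = 0.97 in edgeR). Ndufs3, a core subunit of complex I, had a median of 124 CPM in females (91.5 to 163) and 104 CPM in males (50.9 to 134), with a difference of -0.27 (SE 0.10, adjusted p = 0.97). Cox6c had 700 CPM in females (540 to 971) and 645 CPM in males (510 to 773), with a difference of -0.22 (SE 0.08, adjusted p = 0.97). The ranges of females and males overlapped in each. The other 7 were Uqcrc2, Ndufs4, Cox7b, Atp5g1, Ndufb2, Ndufc1 and Atp5mpl, with differences from -0.26 to -0.15. Of the 3 X-linked members, Cox7b differed by -0.24 (SE 0.10), Ndufa1 by -0.21 (SE 0.16) and Ndufb11 by -0.10 (SE 0.09).

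The sex difference was then taken apart by genotype, a comparison added after the sex difference had been seen. The sex by genotype interaction was called for 0 members at an adjusted p under 0.05 in edgeR and DESeq2 (background 0.0%, smallest adjusted p of a member 0.76). At an unadjusted p under 0.05 it was called for 15 members in edgeR (background 6.39%) and 15 in DESeq2 (1218 of 17428 genes), all in 1 direction. The interaction was negative for 75 of 80 members with a median of -0.28 against 0.02 over all genes. Without the outlying mouse it was negative for 77, with a median of -0.24. With 5 surrogate variables it was negative for 55, with a median of -0.07 and 3 unadjusted calls (background 758 of 17428 genes). Without the 4 mice aged 77 days there were 31 unadjusted calls and a median of -0.36. The background rose too in that fit, to 1939 of 17428 genes from 1113 in the main fit.

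Among CYFIP OE mice 77 of 80 members were lower in males than in females (median -0.26), and 40 had an unadjusted p under 0.05 in edgeR, all of them lower (background 9.39%). With 5 surrogate variables 67 were lower and 3 had an unadjusted p under 0.05 (background 703 of 17428 genes). A fit of CYFIP OE mice alone gave 25 (background 1332 of 17428 genes). Among control mice 38 were lower and the median was 0.01, with 0 unadjusted calls (background 2.62%). Seen from the other side, 77 members were higher in CYFIP OE than in control females (median 0.16, 9 unadjusted calls, all higher, background 3.79%). With 5 surrogate variables 50 were higher, with a median of 0.03 and 3 calls (background 840 of 17428 genes). In males 60 were lower in CYFIP OE mice (median -0.12, 7 unadjusted calls, all lower, background 7.06%). Without the outlying mouse 67 were lower in males, with a median of -0.09 and 1 call (background 662 of 17428 genes). The 4 contrasts share their mice in pairs and are not independent. Nor are the members, which moved together across mice. A count of members beside the background, here and for the other comparisons, is therefore not a count of separate observations.

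Summed levels show the same groups mouse by mouse. The summed CPM of all 80 members had a median of 14361.6 in control females (12887.8 to 16821.9, n = 8), 15072.8 in control males (12425.6 to 16255.7, n = 8), 16326.7 in CYFIP OE females (12984.0 to 18051.5, n = 8) and 13161.3 in CYFIP OE males (11859.8 to 15700.8, n = 7). All 4 ranges overlapped. The means were 14493 ± 1152, 14619 ± 1396, 16220 ± 1628 and 13424 ± 1270 CPM (SD). In CYFIP OE mice the female mean was above the male mean in each complex. It was 4872 ± 502 against 4096 ± 309 CPM in complex I, 395 ± 26.8 against 338 ± 30.8 in II, 1505 ± 153 against 1268 ± 126 in III, 4845 ± 561 against 3821 ± 468 in IV and 4602 ± 444.2 against 3902 ± 400 in V. Both lines had this order, with means of 15516 and 13107 CPM in line 1 (4 females and 3 males) and 16924 and 13662 CPM in line 3 (4 and 4). Control mice had it in line 3 (14859 and 13937 CPM) and the reverse in line 1 (14127 and 15301 CPM, 4 and 4). Name groups were spread unevenly over sex and genotype. In line 3 most CYFIP OE females shared a name prefix. In every mouse with that prefix, of both genotypes and sexes, the median member was above its mean over the 31 mice. In every mouse of another prefix, held by CYFIP OE males and a control female, it was below. The part of name group in the order of the sums was not tested. By genotype alone the sums differed by a log2 ratio of 0.04 over all members, with an SD between mice of 0.16, and by line of 0.02.

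**Figure D4:**
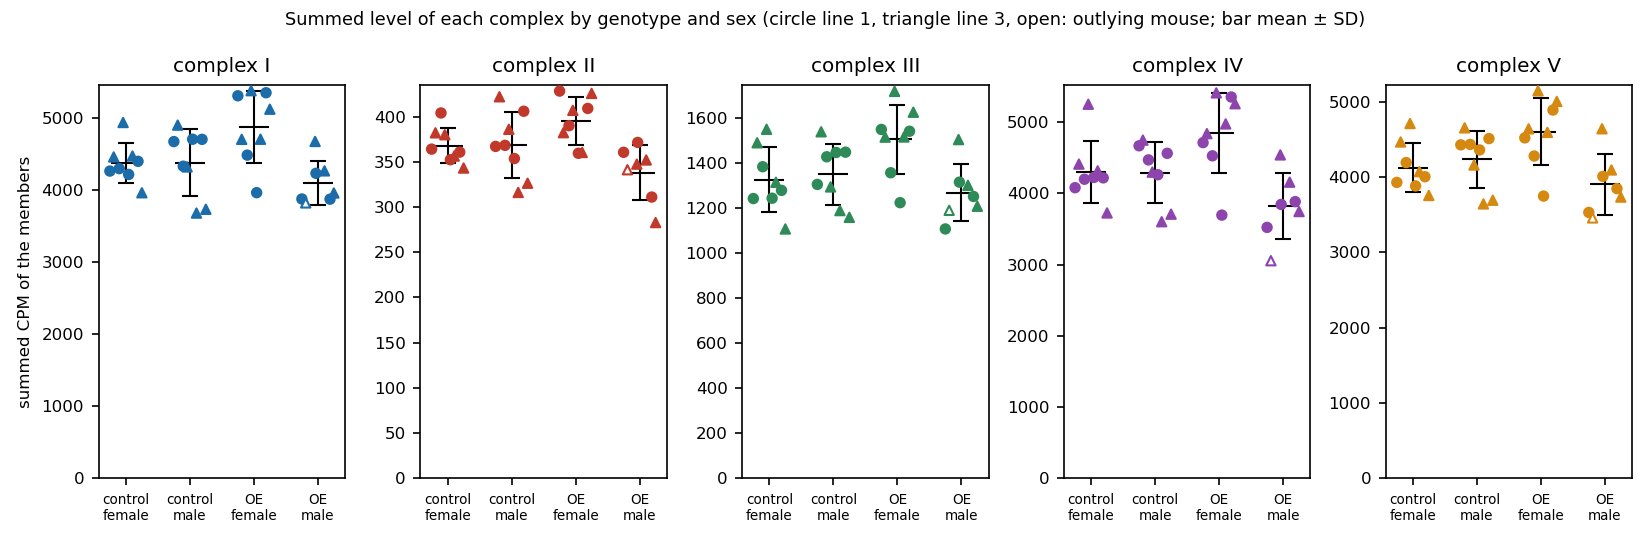
Summed CPM of the members of each complex in each mouse by genotype and sex (circles line 1, triangles line 3, open point the outlying mouse, bars mean and SD, axes from 0). CYFIP OE females have the highest and CYFIP OE males the lowest mean in all 5 complexes, with overlapping ranges.

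The members with the smallest p in this interaction came from complexes I, III and V. Ndufb6 (ENSMUSG00000071014, chromosome 4, 40270591 to 40279421, minus strand), an accessory subunit in the membrane arm of complex I, had a median of 69.3 CPM in control females (56.1 to 81.4), 75.1 in control males (60.4 to 95.7), 79.6 in CYFIP OE females (60.8 to 99.9) and 61.4 in CYFIP OE males (36.2 to 74.7). CYFIP OE males were the lowest group and overlapped with each of the others. The interaction was -0.62 (SE 0.19, adjusted p = 0.76 in edgeR), -0.53 (adjusted p = 0.975) without the outlying mouse and -0.34 (adjusted p = 0.998) with 5 surrogate variables.

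Uqcrc1 (ENSMUSG00000025651, chromosome 9, 108936633 to 108949623, plus strand) had medians of 87.1 CPM in control females (66.9 to 108), 98.7 in control males (83.4 to 113), 108 in CYFIP OE females (86.2 to 128) and 76.6 in CYFIP OE males (74.2 to 106). Its interaction was -0.51 (SE 0.16, adjusted p = 0.76), -0.48 (adjusted p = 0.975) without the outlying mouse and -0.36 (adjusted p = 0.998) with 5 surrogate variables. Atp5b (ENSMUSG00000025393, chromosome 10, 128083273 to 128090391, plus strand) had medians of 479, 548, 543 and 443 CPM in the same order of groups, over ranges of 414 to 551, 457 to 633, 436.2 to 630.7 and 374.7 to 568.1 CPM. Its interaction was -0.43 (SE 0.15, adjusted p = 0.76), and with 5 surrogate variables -0.20 (adjusted p = 0.998). In each of these 3 genes males were higher than females among control mice and lower among CYFIP OE mice. Others among the 15 were Ndufa3, Ndufa7 and Ndufa9 of complex I, Uqcrb and Uqcr11 of III, Cox4i1, Cox5a, Cox6b1 and Cox7a2 of IV, and Atp5a1 and Atp5f1 of V, with interactions from -0.49 to -0.31.

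**Figure D5:**
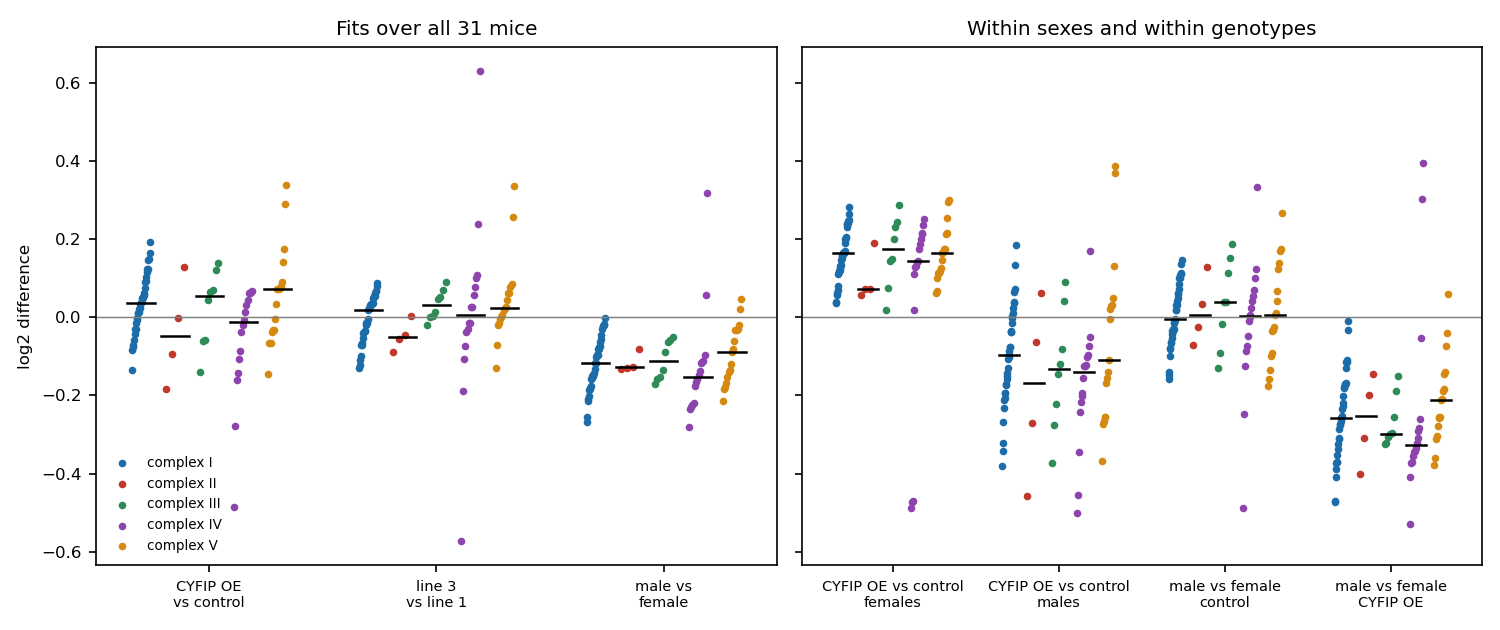
Log2 difference of each of the 80 members (points, coloured by complex, black bars the median of each complex) for genotype, line and sex over all 31 mice on the left, and for genotype within each sex and sex within each genotype on the right. Points of the sex comparison lie mostly below 0, and on the right the medians are above 0 for CYFIP OE against control females, near 0 for male against female controls and below 0 for the other pair of comparisons.

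Other lists moved with this interaction. Markers of oligodendrocytes were lower in it for 7 of 7 genes (median -0.79), with 0 at an unadjusted p under 0.05. In CYFIP OE against control males 7 of 7 of these markers were lower (median -0.76), with 4 at an unadjusted p under 0.05. In females 6 were higher and 1 lower (median 0.15), with 0 calls. Their summed level was 1549 to 4940 CPM in control females, 1419 to 8813 in control males, 1101 to 4820 in CYFIP OE females and 1202 to 5067 in CYFIP OE males, with none at 0. Markers of striatum were lower for 5 of 5 tested genes (median -0.63), with sums of 169 to 3428, 449 to 2498, 454 to 3852 and 184 to 3473 CPM in the same order, and Drd2, at 0 in most mice, was not tested. Of 8 neuronal markers 7 were lower (median -0.12), and their sums were alike in the 4 groups (medians 3015, 3032, 3094 and 2930 CPM). The median was -0.04 for 5 astrocyte markers, -0.17 for 5 microglia markers and 0.14 for 6 markers of amygdala principal neurons. It was -0.50 for 3 thalamus markers, 0.98 for 3 choroid plexus markers, 0.13 for 3 blood markers and 0.05 for 4 vessel markers. Citric acid cycle genes were lower for 12 of 14 (median -0.26, 1 unadjusted call), ribosomal protein genes for 57 of 79 (-0.14, 4 calls), proteasome genes for 21 of 37 (-0.10, 4 calls) and the 13 mitochondrial genes for 9 (-0.15, 0 calls). The part of these in the members' values was not tested.

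The lists of related genes gave few calls. For genotype, line, sex and the line interaction, 0 genes of any list had an adjusted p under 0.05 in edgeR. Of 15 assembly factors of complex I tested, 10 were lower in males (median -0.03), with Ndufaf5 (-0.32, adjusted p = 0.97) and Ndufaf8 (-0.27, adjusted p = 0.97) under the unadjusted threshold. Of 6 of complex III, 5 were lower in males (median -0.13), among them Uqcc2 (-0.21, adjusted p = 0.97). Of 18 of complex IV, 12 were lower in males (median -0.09), and Cox11, a copper chaperone, differed by line (-0.56, SE 0.14, adjusted p = 1). Assembly factors of II and V had sex medians of -0.01 and -0.09. Among subunits outside the symbol rule, 4 of 4 tested were lower in males, with Cycs, cytochrome c, at -0.21 (SE 0.09, adjusted p = 0.97).

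Of the 13 mitochondrial genes, 12 were lower in males (median -0.18), with mt-Cytb of complex III at -0.21 (SE 0.10, adjusted p = 0.97) and mt-Co3 of complex IV at -0.21 (adjusted p = 0.97). For genotype 10 of 13 were higher in CYFIP OE mice (median 0.08), and in the line interaction 12 of 13 were positive (median 0.37), with mt-Co1 at 0.42 (SE 0.18, adjusted p = 0.57). Of 14 regulators of mitochondrial biogenesis, 8 were higher in males (median 0.02) and 9 were lower in CYFIP OE mice (median -0.05), among them Tfb1m (-0.81, SE 0.36, adjusted p = 0.999). Nrf1 itself differed by -0.11 (SE 0.11) for genotype and 0.19 (SE 0.11) for sex. Of the citric acid cycle genes 10 of 14 were lower in males (median -0.04), and Mdh2, malate dehydrogenase, differed by 0.19 (SE 0.09, adjusted p = 0.999) for genotype.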

How the data were processed

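QuantSeq 3′ RNA-seq libraries of 31 BLA samples, each 1 mouse, were analysed. The authors deposited estimated counts per gene, not normalized, 1 file per mouse. Their notes name STAR, Picard, MultiQC and Salmon and the build GRCm38, with versions not given in the sources used here. Salmon divides reads that fit several genes among them, which affects members with near-identical copies. The study removed samples with a connectivity Z-score under -2 and used 5 sequencing principal components as covariates. Here that mouse was kept in the main result and left out in an alternative, and 5 surrogate variables stood in for the components.

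The values were rounded to integers. A gene was tested if its count reached 10 in 7 or more of the 31 mice. Genotype, line and sex were tested together by edgeR 4.0.16 (TMM, quasi-likelihood, Benjamini-Hochberg adjustment over all 17428 genes, R 4.3.3), and interactions by an added term. DESeq2 1.42.0 and sva 3.50.0 served the alternatives. Copies were found with BLAST+ 2.17.0. Correlations used log2(CPM + pseudocount) after sex, line and genotype had been removed. The scripts were tested on simulated data. Depth of 5286925 to 8685521 counts per mouse leaves the lowest members with few reads. Groups came from the labels, and mice are separate animals, so p-values measure the spread between mice. Mice of the same name group were treated as independent in the main fits.

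The members, lists and promoters were chosen with earlier results of these data known. The sex by genotype comparison, the contrasts within a sex or genotype and the addition of copies were added after the data had been seen, and the genes named for that comparison were chosen after their values were seen. For the other comparisons, members with an adjusted p under 0.05 were to be named, otherwise the 3 smallest p in each direction. Per complex the 2 highest and the lowest mean levels and the highest and lowest median r to the own complex were named, together with tissue isoforms, the X-linked members and Sdha to Sdhd. Of the pathway lists up to 3 genes were named by smallest p, and Nrf1 was added after its value was seen. One of the members is withheld from the text and not reported here by name.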

Additional observations from a re-analysis of the deposited data

Results flagged for a closer look

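Dixon's test for a sample far from the others was run in each of the 4 groups of 7 or 8 mice on the summed level of each complex, on that of all members and on Ndufs4, Atp5k, Atp5l and Atp5g2, and 6 of 40 tests passed its 95% critical value. Chance gives about 1 in 20 for a single test. The 40 tests were not independent, since the sums overlap and the 4 genes were chosen from these same data. The count of 6 therefore cannot be read against chance. In CYFIP OE line 3 replicate 1, the outlying mouse, Atp5g2 had 75.8 CPM (the other 7 mice 19.1 to 40.0), Atp5k 442 CPM (269 to 336) and Atp5l 437 CPM (130 to 226). In control line 3 replicate 6, Atp5k had 338 CPM (220 to 254), Atp5l 249.1 CPM (105 to 159) and Ndufs4 112 CPM (61.6 to 84.0). These values are for the genes alone, without their copies.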

How the results depend on the processing

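Over 54 alternatives to the counts of members called, 0 members were called in any. Counts at an unadjusted p under 0.05 ranged from 0 to 7 for genotype, 0 to 2 for line, 0 to 25 for sex, 2 to 6 for the line interaction and 3 to 31 for the sex by genotype interaction. The background changed with the fit as well. The highest counts for sex (25) and for the sex by genotype interaction (31) stood beside 1332 and 1939 of 17428 genes. The median r between complexes was 0.298 with the first principal component removed, 0.187 with 5 surrogate variables removed and 0.420 among members of at least 20 CPM. The median r within complexes was 0.194 with 5 surrogate variables removed. These variables also moved the median log2 value of the sex by genotype interaction to -0.07, of genotype in females to 0.03 and of sex in CYFIP OE mice to -0.09. The median for sex was -0.00 in control mice alone and -0.27 in CYFIP OE mice alone. The cause was not tested. No paired analysis was possible because the replicate numbers only name mice in accession order, and the pairing by number was not used. A fit with name group as a term was limited to 18 mice, from 5 name groups with control and CYFIP OE mice. Of these mice 16 were of line 3, so the fit says little about line 1. It called 0 members for genotype, with 2 at an unadjusted p under 0.05, both higher, and a median of 0.04. The fit of line 3 mice alone, without that term, had 7, all higher, and a median of 0.09. The difference between these fits was not tested. The median SE of 0.18 for the interactions is not a detection limit. Much larger differences were not called either, such as the sex by genotype interaction of Ndufb6 (-0.62, SE 0.19, adjusted p = 0.76 in edgeR). Depth and animal number therefore leave sizeable differences undetected.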
